A study of Mus musculus with 6 samples.

Results

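The nuclei described here were TC1 tumor nuclei with the highest share of messenger RNA from 8 genes, Msln, Crabp1, Pthlh, Pgf, Sox2, Ptgfr, Cavin4 and Nrgn. A nucleus was counted as a tumor nucleus when Hmga2, Mecom and Slit2 together made up at least 0.5% of its unique molecular identifiers (UMIs, the counted RNA molecules) and when it held fewer than 3 counts of the macrophage genes Adgre1, Cadm1, Csf1r, Cd84 and Mrc1. Within each library, the top 10% of tumor nuclei by the share of the 8 markers were taken as members, provided that they held at least 2 marker counts. This gave 812 members among 8149 tumor nuclei and 18865 barcodes, with 165, 139 and 72 (CO) and 237, 128 and 71 (KO) in replicates 1, 2 and 3 of each group. The name of the state comes from these marker genes and not from an annotation by the authors. The paper lists Crabp1, with Anxa5, Pgam1 and Pgk1, among the top CO markers of its mesenchymal cells, and not among those for KO. How far the members overlap with that cluster was not tested. Because the rule used the counts of the 8 markers, the higher level of these genes in the members is the choice itself and not a result.

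TC1 is a transplantable mouse lung epithelial tumor line that carries viral oncogenes and an activated Ras gene. TC1 cells were injected under the skin of the flank, so that the tissue label of the series, lung, names the origin of the line and not the site of growth. The host mice were male and 8 weeks old on a C57BL/6 background and carried loxP-flanked MCT2 alleles (MCT2loxP/loxP, the gene Slc16a7) and a transgene for a tamoxifen-inducible Cre recombinase that acts in the whole body (mCre-Tg, Cre+). Mice given tamoxifen for 5 days were labelled knockout (KO), mice given vehicle without tamoxifen were labelled control (CO), TC1 cells followed 2 days later, and tumors were collected after 24 days. There were 3 KO and 3 CO libraries of nuclei from frozen tumors. The labels do not say that each library came from a separate mouse, so that p-values measure the spread between these libraries. The deletion could take place in host cells and not in the grafted TC1 cells, and in this design the loss of MCT2 cannot be told apart from the tamoxifen itself. The paper also reports larger tumors in KO than in CO mice at the endpoint. Tumor size therefore cannot be told apart from the group label either. MCT2 is a transporter of pyruvate and lactate.

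Slc16a7 was checked first. Its UMIs over all tumor nuclei numbered 6, 9 and 12 (CO) and 23, 18 and 14 (KO), too few to read in grafted cells that hold no floxed allele. Over all barcodes of a library its level, in counts per 1000000 UMIs (CPM), was 8.14, 10.4 and 14.7 CPM (CO) and 16.1, 5.71 and 20.3 CPM (KO), so that the groups overlapped and the label KO was not borne out by a lower count. Which part of the gene is deleted is not given in the sources used here, and the 3′ counts need not fall in it. Below, CO and KO therefore mean the libraries labelled CO and KO. The libraries held 13252572 to 22057084 UMIs each. Tumor nuclei had a median of 4289 to 7838 UMIs in the nuclei outside the state and 4318 to 9026 in the members. A total of 61 barcode sequences occurred in 2 or more libraries, of which 5 were tumor nuclei more than once, and no barcode was a member in 2 libraries.

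The markers come from different pathways. Msln encodes mesothelin, a surface protein of mesothelial cells that many carcinomas express. Crabp1 is a cytoplasmic carrier of retinoic acid. Pthlh encodes parathyroid hormone-related protein, a secreted ligand that many tumors release and that acts through the receptor Pth1r. Pgf encodes placental growth factor, a ligand of the VEGF receptor Flt1. Sox2 is a transcription factor of stem and progenitor cells, Ptgfr is the receptor for prostaglandin F2α, Cavin4 is a coat protein of caveolae that is best known from muscle, and Nrgn is neurogranin, a calmodulin-binding protein of neurons. Tumors grown from a single line are known to hold cells in different transcriptional states.

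In GRCm38, the build of the files, with GENCODE vM21 annotation, Msln (ENSMUSG00000063011) lies on chromosome 17 from 25748613 to 25754378 on the minus strand, Crabp1 (ENSMUSG00000032291) on chromosome 9 from 54764748 to 54773110 on the plus strand, Pthlh (ENSMUSG00000048776) on chromosome 6 from 147252101 to 147264183 on the minus strand and Pgf (ENSMUSG00000004791) on chromosome 12 from 85166635 to 85177790 on the minus strand. Sox2 (ENSMUSG00000074637) lies on chromosome 3 from 34650405 to 34652461 on the plus strand, Ptgfr (ENSMUSG00000028036) on chromosome 3 from 151796502 to 151837630 on the minus strand, Cavin4 (ENSMUSG00000028348) on chromosome 4 from 48663514 to 48673502 on the plus strand and Nrgn (ENSMUSG00000053310) on chromosome 9 from 37544492 to 37552904 on the minus strand. All 8 are protein-coding. They span 2057 to 41129 bases and are thus mostly short genes, of which Sox2 has a single exon.

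Promoters of 7 of the 8 markers were held by the RefSeq table used here (build GRCm38.p6). The 250 bases before the RefSeq start of Crabp1, Pthlh and Cavin4 are shown because they display the contrast among the markers. The GC box (GGGCGG) and the TATA box (TATAAA) are in capitals on either strand. The GENCODE start of Pthlh, at 147264183, lies inside its window, so that part of this window is within the gene as placed above.
Crabp1 promoter, chr9:54764498-54764747, plus strand: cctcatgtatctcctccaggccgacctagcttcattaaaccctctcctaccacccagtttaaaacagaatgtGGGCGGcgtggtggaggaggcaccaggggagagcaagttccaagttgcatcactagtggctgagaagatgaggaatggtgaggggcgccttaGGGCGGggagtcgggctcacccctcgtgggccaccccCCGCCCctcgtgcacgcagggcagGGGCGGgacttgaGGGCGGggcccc
Pthlh promoter, chr6:147264014-147264263, minus strand: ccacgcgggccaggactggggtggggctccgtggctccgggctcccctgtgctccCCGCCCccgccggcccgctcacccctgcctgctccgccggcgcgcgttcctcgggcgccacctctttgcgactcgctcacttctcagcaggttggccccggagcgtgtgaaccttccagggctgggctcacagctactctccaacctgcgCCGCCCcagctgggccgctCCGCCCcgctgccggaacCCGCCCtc
Cavin4 promoter, chr4:48663264-48663513, plus strand: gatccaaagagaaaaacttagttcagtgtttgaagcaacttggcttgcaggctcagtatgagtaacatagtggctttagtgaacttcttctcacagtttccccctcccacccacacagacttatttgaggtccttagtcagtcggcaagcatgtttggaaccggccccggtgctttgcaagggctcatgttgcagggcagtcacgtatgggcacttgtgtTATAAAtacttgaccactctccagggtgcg
Crabp1 had 5 GC boxes in this window, Pthlh had 4, and Cavin4 had none but a TATA box 30 bases before its start. The GC box was present before 6 of the 7 markers, compared with 65.7% of the 9029 tested genes with a window, so that the share among the markers was near that of genes at large. The other letters searched on both strands were the AP-1 site TGANTCA, the cyclic AMP response element TGACGTCA and its shorter core TGACGT, the hypoxia core ACGTG, the TEAD site GGAATG and the SOX site ACAATG. The hypoxia core was found before Cavin4 and the TEAD site before Crabp1 and Nrgn, and the AP-1, cyclic AMP and SOX letters before none of the 7. Of all 32851 windows of this length, 6.75% held AP-1, 1.55% the cyclic AMP element, 6.47% its core, 16.6% the hypoxia core, 12.6% TEAD, 10.7% SOX, 12.4% TATA and 32.7% the GC box.

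In the members, the 8 markers made up a median of 9.69 to 17.7 of every 10000 UMIs, compared with 2.12 to 4.61 in the other tumor nuclei. The last member and the first nucleus outside had 13.6 and 13.5 marker UMIs per 10000 in CO replicate 1, and 7.42 and 7.41 in KO replicate 2, the lowest edge of the 6 libraries. Between 15.1% and 26.9% of the other tumor nuclei held no marker count at all. Members held a median of 7 to 13 marker counts and up to 146.

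How many of the 8 genes a member holds follows in part from the choice and is given as a description. In all, 502 of 812 members, or 61.8%, had counts of 4 or more of the 8 genes, as did 9.78% to 22.1% of the other tumor nuclei by library, and 19 had counts of a single one. In 280 members, or 34.5%, 1 gene supplied more than 50% of the marker counts. Nrgn and Sox2 gave 19.8 to 26.1% and 15.2 to 27.4% of the members' marker UMIs across libraries. Cavin4 gave 1.86 to 8.57% and Msln 1.93 to 14.8%. Ptgfr gave 7.36 to 29.7% and was the largest contributor only in KO replicate 2. Across all tumor nuclei thinned to 1500 UMIs, the correlation between pairs of markers had a median of 0.00778 to 0.0401 per library over 28 pairs, with a highest value of 0.229. These are correlations over nuclei of 1 library with few counts each, and are given as a description only. When the marker shares were taken from counts thinned to 1500 UMIs per nucleus, 424 of the 812 nuclei, or 52.2%, were chosen again.

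Each marker was then read in members chosen by the other 7, so that its own counts did not enter the choice. This does not make an independent test, because the 8 genes had been put together from these same nuclei, and no p-value is given. All 8 were called higher in such members, and each was higher in 6 of 6 libraries. Of all genes tested in these 8 fits, 4.33% were called higher, and nothing is read from the contrast.

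Pgf showed the largest difference. Its level was 155, 59.8 and 97.7 CPM (CO) and 49.5, 49.2 and 76.0 CPM (KO) in nuclei chosen without it, and 36.9, 24.0 and 22.1 CPM (CO) and 23, 20.3 and 30.6 CPM (KO) in the other tumor nuclei, a log2 fold change of 1.61 (SE 0.12). The lowest member value lay above the highest value of the other nuclei. Pthlh stood at 102, 90.7 and 59.7 CPM (CO) and 53.7, 78.2 and 66.1 CPM (KO) in the members and at 39.1, 30.7 and 25.0 CPM (CO) and 17.9, 24.1 and 29.9 CPM (KO) in the others, which is 1.52 on the log2 scale (SE 0.10), and again the ranges did not overlap. Cavin4, the least abundant marker, was at 84.9, 84.9 and 18.1 CPM (CO) and 49.8, 28.7 and 44.9 CPM (KO) in the members and at 40.2, 26.8 and 17.8 CPM (CO) and 27.3, 12.7 and 26.0 CPM (KO) in the others, and hardly differed in CO replicate 3. The log2 fold changes of the other genes were 1.36 for Crabp1, 1.16 for Msln, 1.14 for Cavin4, 1.13 for Nrgn, 0.95 for Ptgfr and 0.94 for Sox2, with SEs of 0.08 to 0.13. Nrgn ranged from 143 to 336 CPM in the members and from 61.0 to 147 CPM in the others. Sox2 ranged from 122 to 338 CPM in the members and from 55.0 to 197 CPM in the others, and these ranges overlapped. Msln ranged from 17.6 to 150.1 CPM in the members and from 9.12 to 69.4 CPM in the others, and was highest in KO replicate 1 in both. The plot of held-out marker levels shows the 6 pairs of values for each gene.

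**Figure D1:**
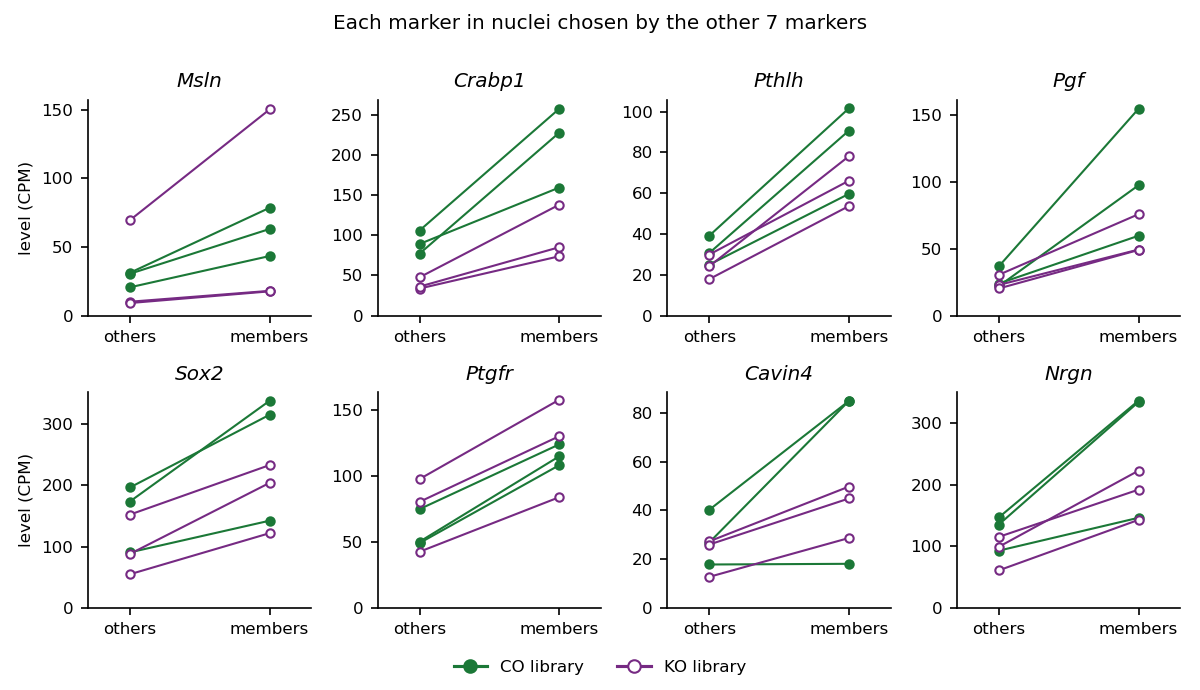
Level of each marker (vertical axis, CPM) in nuclei chosen by the other 7 markers (members) and in the other tumor nuclei, with 1 line per library. Every line rises from others to members, and the Cavin4 line of 1 CO library is nearly flat.

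Marker RNA was also counted in macrophage nuclei, and its source there was not tested. In macrophage nuclei of the same libraries, with 3 or more counts of the macrophage genes and less than 0.5% of UMIs in the tumor genes, the 8 markers together stood at 238, 197 and 169 CPM (CO) and 264, 98.4 and 226 CPM (KO), compared with 716, 637 and 477 CPM (CO) and 536, 351 and 443 CPM (KO) in all tumor nuclei. Macrophage nuclei had a median of 1842 to 2444 UMIs. When all nuclei were thinned to 1500 UMIs, Sox2 was seen in 1.22% to 6.60% of macrophage nuclei, in 5.88% to 21.6% of the other tumor nuclei and in 20.3% to 47.5% of members. Crabp1 was seen in 2.44% to 14.4% of macrophage nuclei and in 3.98% to 11.7% of the other tumor nuclei. Its share in tumor nuclei outside the members was thus within the range of macrophage nuclei. Pthlh was seen in a median of 3.14% of the other tumor nuclei and 1.10% of macrophage nuclei over the 6 libraries, and Pgf in 2.97% and 2.19%. Msln was at 10.5, 1.99 and 5.04 CPM (CO) and 39.4, 0 and 10.8 CPM (KO) in macrophage nuclei. In KO replicate 3 both Msln and Crabp1 were higher in macrophage nuclei (10.8 and 43.4 CPM) than in all tumor nuclei (9.97 and 40.8 CPM). TC1 is an epithelial line, but genes that define epithelium were near 0 in the members. The 18 epithelial markers summed to at most 6.80 CPM, none was tested, and Krt5, Krt14, Cldn3, Cldn4, Nkx2-1 and Sftpc had no count in any tumor nucleus. Of the mesothelial genes other than Msln, 2 of 15 had enough counts to be tested and neither was called, and Calb2, Lrrn4 and Bnc1 had no count.

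The next question was which other genes went with the markers. Counts were summed per library over members and over the other tumor nuclei and compared with the edgeR quasi-likelihood test with the library as a block, and a gene was called at an adjusted p of 0.05 or less and a log2 fold change of at least 0.58 in size. Of 11293 genes outside the rule, 548 were higher in the members (4.85% of those tested) and 233 were lower (2.06%). With members chosen from counts thinned to 1500 UMIs per nucleus, 96 genes were higher and 67 lower, and with members chosen on a random 50% of each nucleus's UMIs and compared on the rest, 393 were higher and 119 lower. These calls say which genes differed along the chosen range in the same nuclei, and are not independent evidence that the markers form a state. Rgs16, Ceacam1 and Cyp26b1 rose most among the named genes, and Prex2, Rspo3 and Frmd5 were among those that fell most.

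Rgs16, a brake on G protein signaling, had the largest rise among the genes with at least 10 CPM and 1 direction in all libraries. It was at 36.0, 52.6 and 23.4 CPM (CO) and 36.1, 34.0 and 53.6 CPM (KO) in the members and at 9.71, 9.05 and 10.3 CPM (CO) and 7.39, 5.06 and 8.81 CPM (KO) in the other tumor nuclei (log2 fold change 2.34, SE 0.16, adjusted p = 1.2e-11). Every member value lay above every value of the other nuclei. Thbs2, which encodes the matrix protein thrombospondin 2, was at 906, 532 and 448 CPM (CO) and 426, 352 and 430.4 CPM (KO) in the members and at 326, 221 and 202 CPM (CO) and 167, 153 and 204 CPM (KO) in the others (log2 fold change 1.33, SE 0.06, adjusted p = 3.6e-15). The ranges did not overlap. Pi15, a secreted peptidase inhibitor, was at 145, 174 and 68.4 CPM (CO) and 74.7, 175 and 140.3 CPM (KO) in the members and 55.7, 59.8 and 31.2 CPM (CO) and 38.1, 72.0 and 62.8 CPM (KO) in the others (log2 fold change 1.34, SE 0.08, adjusted p = 1.6e-12), a rise in each library with only a small overlap of the ranges. Chrna1, the muscle acetylcholine receptor subunit, was at 40.6, 19.8 and 25.2 CPM (CO) and 37.8, 21.1 and 30.3 CPM (KO) against 10.9, 9.86 and 7.75 CPM (CO) and 13.4, 7.96 and 9.85 CPM (KO) (log2 fold change 1.59, SE 0.15, adjusted p = 7.8e-09). Sgk1, a kinase induced by serum and glucocorticoids, rose by 1.33 on the log2 scale, and the small calcium-binding protein gene S100a4 by 1.32. Further rises were 2.31 for the adhesion gene Ceacam1, 1.83 for Ccdc88b, 1.67 for the pyrimidine enzyme gene Dpys, 1.67 for Itgbl1, 1.65 for the sorting receptor gene Sorcs2, 1.51 for the immune checkpoint ligand gene Pdcd1lg2, 1.5 for the racemase gene Amacr and 1.41 for the galectin gene Lgals7. All 15 named rises had the same direction in 6 of 6 libraries, as the rule for naming them asked. Ceacam1 in KO replicate 1 was nearly level, at 1.68 CPM in the members and 1.6 CPM in the others.

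Among the 10 largest falls, Lingo2 and Frmd5 were the most abundant genes. Lingo2, a neuronal adhesion gene that spans 1245101 bases, was at 75.8, 81.9 and 43.2 CPM (CO) and 243, 55.1 and 94.9 CPM (KO) in the members and at 241, 287 and 109 CPM (CO) and 437, 359 and 300.2 CPM (KO) in the other tumor nuclei (log2 fold change -1.58, SE 0.13, adjusted p = 6.0e-10). The members were lower in all 6 libraries, although the ranges overlapped because KO replicate 1 was high in both kinds of nuclei. Frmd5, a cytoskeletal adaptor gene, was at 11.5, 31.0 and 176 CPM (CO) and 47.0, 66.6 and 15.1 CPM (KO) in the members and 114, 119 and 378 CPM (CO) and 108, 263 and 155 CPM (KO) in the others (log2 fold change -1.82, SE 0.15, adjusted p = 5.0e-10), with CO replicate 3 highest in both. Gpm6b, a membrane glycoprotein gene of neural cells, was at 24.5, 14.7 and 36.0 CPM (CO) and 8.39, 17.7 and 16.5 CPM (KO) against 37.9, 35.2 and 83.1 CPM (CO) and 42.9, 87.1 and 83.3 CPM (KO) (log2 fold change -1.60, SE 0.17, adjusted p = 4.7e-08), and its highest member value lay among the lowest values of the others. The paper lists Frmd5 and Gpm6b, together with Pde10a, among the top markers of its fibroblast cluster. Gpm6b is also part of the Pde10a-Col12a1-Gpm6b set that is read further below. Other falls were of less abundant genes. On the log2 scale they were -2.02 for Prex2, -1.89 for the Wnt enhancer Rspo3, -1.74 for Plxdc2, -1.67 for the leukocyte gene Dock2, -1.64 for the interferon-inducible Epsti1 and -1.63 for Tshz2. Their SEs were 0.23 to 0.35.

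Gene length moved with these calls. Of genes that span under 10 kb, 14.1% were called higher and 0.3% lower, and of genes over 100 kb, 1.62% were higher and 6.03% lower. The median log2 fold change was 0.29 over 2336 genes under 10 kb and -0.17 over 1725 genes over 100 kb, against 0.0023 over all genes. RNA of ribosomal protein and cytoskeletal genes, which is abundant in cytoplasm, made up a median of 2.82, 2.37 and 1.52% (CO) and 2.64, 0.642 and 1.24% (KO) of UMIs in the members and 1.98, 1.81 and 1.27% (CO) and 2.21, 0.501 and 0.859% (KO) in the other tumor nuclei, higher in the members of all 6 libraries. Mitochondrial transcripts made up 10.1, 9.64 and 6.63% (CO) and 10.1, 6.82 and 5.90% (KO) in the members and 9.76, 8.60 and 4.82% (CO) and 9.07, 5.18 and 4.53% (KO) in the others. Their difference was 1.21 ± 0.530 percentage points (SD, n = 6), higher in 6 of 6 libraries (exact sign-flip permutation test, two-sided, p = 0.031, the smallest that 6 libraries can give). Some nuclear preparations had received extra washes, and which ones is not given in the sources used here.

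The comparison was therefore repeated, after seeing these values, against other tumor nuclei matched to the members of the same library on the share of ribosomal protein and cytoskeletal RNA, 3 per member. The matched nuclei had median shares of 2.78, 2.37 and 1.52% (CO) and 2.64, 0.644 and 1.23% (KO), close to the members. Their median mitochondrial shares were 10.6, 9.49 and 5.11% (CO) and 10.1, 6.84 and 3.86% (KO). The members lay clearly above these only in CO replicate 3 and KO replicate 3, and below them in CO replicate 1 and KO replicate 2. The mitochondrial share was not tested against the matched nuclei. Of 10092 genes, 140 were then higher (1.39%) and 112 lower (1.11%), of which 129 and 104 had been called in the same direction before. Of 507.0 rises tested again, all kept their direction, 201.0 passed the adjusted p of edgeR with a fold under the threshold and 177.0 did not pass it, and their median went from 0.69 to 0.42 on the log2 scale. Of 172.0 falls tested again, all kept their direction, 22.0 had a fold under the threshold and 46.0 did not pass the adjusted p. Genes under 10 kb were called higher in 2.46% of cases and genes over 100 kb lower in 3.79%, so that the gradient with length became smaller but remained. Of the 15 named rises, 14 were tested again and all 14 were called, and of the 10 named falls, 7 were tested and all 7 were called. Rgs16 stood at 2.08, Thbs2 at 1.15, Pi15 at 1.47, Cyp26b1 at 1.51 and S100a4 at 0.83 on the log2 scale, and Frmd5 stood at -1.82, Rspo3 at -1.85 and Lingo2 at -1.39. Ceacam1, Prex2 and Tshz2 were among those with too few counts. The held-out markers had log2 fold changes of 0.78 for Sox2 to 1.51 for Pgf against the matched nuclei. The markers had been put together from these same nuclei, so these values are no independent test and nothing is read from them.

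**Figure D2:**
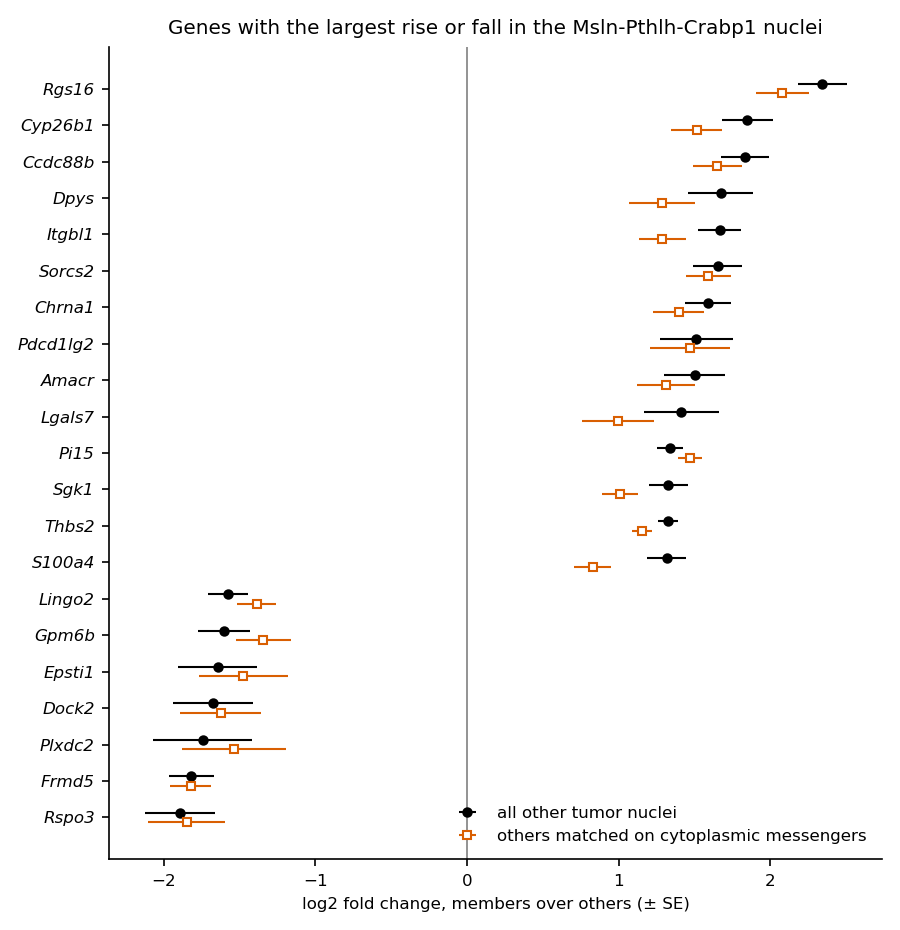
Log2 fold change (horizontal axis, ± SE) of the 14 largest rises and 7 largest falls that were tested in both comparisons, for members against all other tumor nuclei (filled circles) and against others matched on cytoplasmic messengers (open squares). The squares lie on the same side of 0 as the circles, and S100a4 and Lgals7 move furthest toward 0 among the rises.

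**Figure D3:**
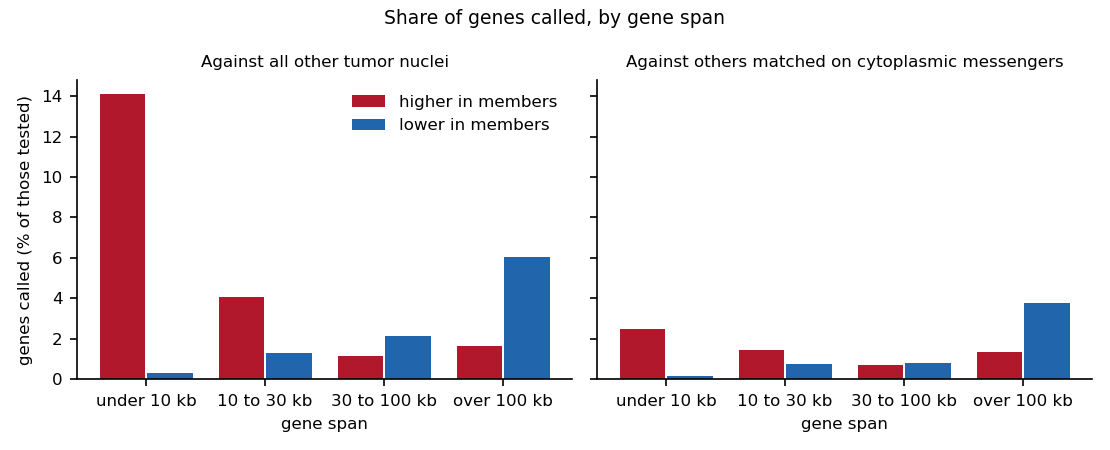
Percentage of tested genes called higher or lower in the members (vertical axis) by the span of the gene, against all other tumor nuclei (left) and against matched others (right). On the left 14.1% of genes under 10 kb were higher, and on the right 2.46%.

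The gene lists differed in how far their calls depended on this matching. Counts of positive values below stand beside medians of 0.0023 over all tested genes and 0.29 over genes under 10 kb. Beside the all-gene shares of 4.85% higher and 2.06% lower, 21 of 26 tested cytoskeletal and abundant cytoplasmic messengers were higher and none lower, with a median log2 fold change of 0.70. Anxa1, an annexin, rose by 0.99, Lgals3, galectin 3, by 0.99 and actin Actg1 by 0.86. Of 52 ribosomal protein genes, 21 were higher and none lower, with a median of 0.52. In the matched comparison, 2 of the cytoskeletal genes, Tpm1 and Anxa1, and none of the ribosomal genes were called, as the matching used these very genes.

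Energy and chaperone genes had the same pattern. In glycolysis, 6 of 17 enzymes were higher, from Aldoa (0.75) and Tpi1 (0.61) to Pgk1, Pgam1, Pkm and Ldha, with a list median of 0.46. Ldha, lactate dehydrogenase A, was at 688, 447 and 203 CPM (CO) and 358, 135 and 238 CPM (KO) in the members and 337, 245 and 149.7 CPM (CO) and 269.5, 83.8 and 155 CPM (KO) in the others (log2 fold change 0.77, SE 0.08, adjusted p = 1.9e-08), higher in each library with wide overlap between libraries. After matching, no glycolytic gene was called and Ldha stood at 0.42. Of 34 nuclear genes of oxidative phosphorylation, 7 were higher at a median of 0.46, and of 12 heat shock genes, 6 were higher at a median of 0.62, among them Hsp90ab1 (0.80) and Hspa8 (0.83). None of either list was called after matching, where the medians were 0.17 and 0.29. The 13 mitochondrial genes had a median of 0.26 and none was called.

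Retinoid genes were called with and without matching. Crabp1 carries retinoic acid, Dhrs3 reduces retinal and Cyp26b1 breaks retinoic acid down. Of 12 tested retinoid genes other than Crabp1, 3 were higher and none lower, and Dhrs3 and Cyp26b1 were among those called also after matching. Cyp26b1 was at 25.3, 31.9 and 28.8 CPM (CO) and 8.39, 53.0 and 39.9 CPM (KO) in the members and at 8.51, 6.81 and 14.1 CPM (CO) and 3.44, 11.8 and 11.2 CPM (KO) in the others (log2 fold change 1.85, SE 0.17, adjusted p = 2.4e-09). Its lowest member value, in KO replicate 1, lay within the range of the other nuclei and the rest lay above it. Dhrs3 rose by 1.28 (SE 0.23). The receptors did not pass: Rara was at -0.29, Rarb at -0.03 and Rarg at 0.05, with adjusted p = 0.124, 0.976 and 0.704 in edgeR's test. Rdh10, which makes retinal, had 0.47, below the fold threshold.

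The receptor of Pthlh was all but absent. Pth1r had 1, 1, 2, 0, 1 and 2 UMIs in the members of the 6 libraries and 7, 12, 16, 16, 9 and 6 in the other tumor nuclei and was not tested. Of 18 tested genes of PTHrP signaling other than Pthlh, 2 were higher, the G protein subunit Gna11 (0.60) and the nuclear receptor Nr4a2 (0.59), and 1 was lower, the phosphodiesterase Pde4b (-1.01). After matching, Pde4b alone was called, and Nr4a2 stood at 0.53 and Gna11 at 0.44, under the fold threshold. Flt1, the receptor that binds placental growth factor, was at 249.7, 276 and 183 CPM (CO) and 189.7, 363 and 326 CPM (KO) in the members and 187, 202 and 173 CPM (CO) and 167, 245 and 226 CPM (KO) in the others. Its log2 fold change of 0.45 (SE 0.07, adjusted p = 9.5e-06) stayed below the fold threshold, with the members higher in 6 of 6 libraries. The coreceptors Nrp1 and Nrp2 had -0.47 and -0.01, and the ligand Vegfa had 0.08, none of them called.

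Among 16 angiogenic ligands and receptors other than Pgf, 3 were higher and 2 lower. Thrombospondin 1 (Thbs1), an inhibitor of vessel growth, was at 111, 48.3 and 103 CPM (CO) and 84.8, 65.3 and 136 CPM (KO) in the members and at 39.3, 19.5 and 65.5 CPM (CO) and 52.8, 29.7 and 37.0 CPM (KO) in the others (log2 fold change 1.25, SE 0.12, adjusted p = 8.6e-09). Angptl4 rose by 0.88 and Pdgfa by 0.67, while the lymphatic growth factor Vegfc (-0.93) and fibroblast growth factor 2, Fgf2 (-0.94), fell in 6 of 6 libraries. After matching, Thbs1, Angptl4, Vegfc and Fgf2 were called and Pdgfa was not. The ligands of blood and lymph vessels thus moved in both directions.

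Of 10 SOX and stem cell factors other than Sox2, 3 were higher, namely Sox4 (0.70), Klf4 (1.30) and Myc (0.77). All 10 had positive values, and Sox4 and Klf4 were called after matching. Sox9 was at 0.12 (adjusted p = 0.53), and Sox11 had no count. Klf4 was at 75.1, 50 and 37.8 CPM (CO) and 42.8, 39.4 and 88.0 CPM (KO) in the members and 33.1, 24.5 and 21.1 CPM (CO) and 19.8, 18.2 and 21.8 CPM (KO) in the others, and the 2 ranges did not overlap. In the prostaglandin list, 1 of 13 tested genes other than Ptgfr was called. This was Ptgs2, cyclooxygenase 2, at 59.7, 112 and 82.7 CPM (CO) and 71.3, 49.0 and 158 CPM (KO) in the members and 37.4, 39.1 and 43.2 CPM (CO) and 34.5, 23.2 and 54.2 CPM (KO) in the others (log2 fold change 1.22, SE 0.11, adjusted p = 1.1e-09). It stood at 0.98 after matching. Ptgfrn, which binds the receptor Ptgfr, had 0.04.

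Of 11 caveolar genes other than Cavin4, 4 were higher, namely Cav1 (0.70), Cavin1 (0.82), Cav2 (0.59) and Cavin3 (0.87), and Ror1 was lower (-1.20), whereas after matching none was called. Cav1 then stood at 0.56, Cavin1 at 0.53 and Cavin3 at 0.52, with adjusted p under 0.05 in edgeR but folds under the threshold, and Ror1 was not tested. Of 16 calmodulin genes and partners other than Nrgn, 4 were higher and 1, Camk4 (-0.74), lower. Marcksl1 had 0.99 and Gap43 0.75, and both were called also after matching.

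Dkk2, Areg and Inhba, which encode secreted proteins, rose in the members. Dkk2, a secreted modulator of Wnt signaling, was at 656, 552 and 1184 CPM (CO) and 576, 1941 and 1005 CPM (KO) in the members and at 282, 246 and 569 CPM (CO) and 249, 565 and 512 CPM (KO) in the others (log2 fold change 1.30, SE 0.08, adjusted p = 2.8e-13). Notum, an enzyme that inactivates Wnt proteins, had 0.95. These were 2 of 6 tested genes of the Wnt list, whose median was 0.10, and both were called after matching. Amphiregulin, Areg, a ligand of the EGF receptor, was at 1133, 1141 and 358 CPM (CO) and 763, 309 and 485 CPM (KO) against 490.1, 490.0 and 217 CPM (CO) and 370.2, 150.5 and 186 CPM (KO) (log2 fold change 1.18, SE 0.07, adjusted p = 3.2e-13). With Ereg (0.64), Dusp5 (0.92), Ccnd1 (0.63) and Spry2 (0.62) it made 5 of 22 genes of Ras-MAPK output that were higher, at a list median of 0.30 with 18 genes positive. Areg and Dusp5 were called after matching. Inhba, the activin A subunit, was at 660.2, 941 and 545 CPM (CO) and 375, 624 and 751 CPM (KO) in the members and 383, 444 and 257 CPM (CO) and 193, 196 and 249 CPM (KO) in the others (log2 fold change 1.25, SE 0.08, adjusted p = 2.2e-12). It was 1 of 3 called genes among 19 of the TGF-beta list, with Id2 (0.86) and Id3 (0.64), and the only one after matching.

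Of 19 hypoxia genes, 5 were higher and 17 had positive values, and Ankrd37 (1.15) and Adm (1.09) were called also after matching. Of 21 immediate-early genes all had positive values and 4 were called, Fosb (1.04), Btg2 (0.64), Klf4 and Dusp1 (0.73), of which Fosb, Btg2 and Klf4 were called after matching. The list medians were 0.33 for hypoxia and 0.49 for immediate-early genes, and 0.21 and 0.25 after matching. In the mesenchymal list, Vim (0.75), Snai2 (0.63), Twist1 (0.59) and S100a4 were higher among 17 genes and S100a4 alone after matching. In the YAP-TEAD list, 3 of 18 were higher, and the list median was -0.04. Of 19 interferon response genes, 1 was higher (Isg15) and 1 lower (Oas2), and of 12 MHC class I genes, 1 was higher (H2-T23). The plot of list ratios gives the summed level of each list by library.

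**Figure D4:**
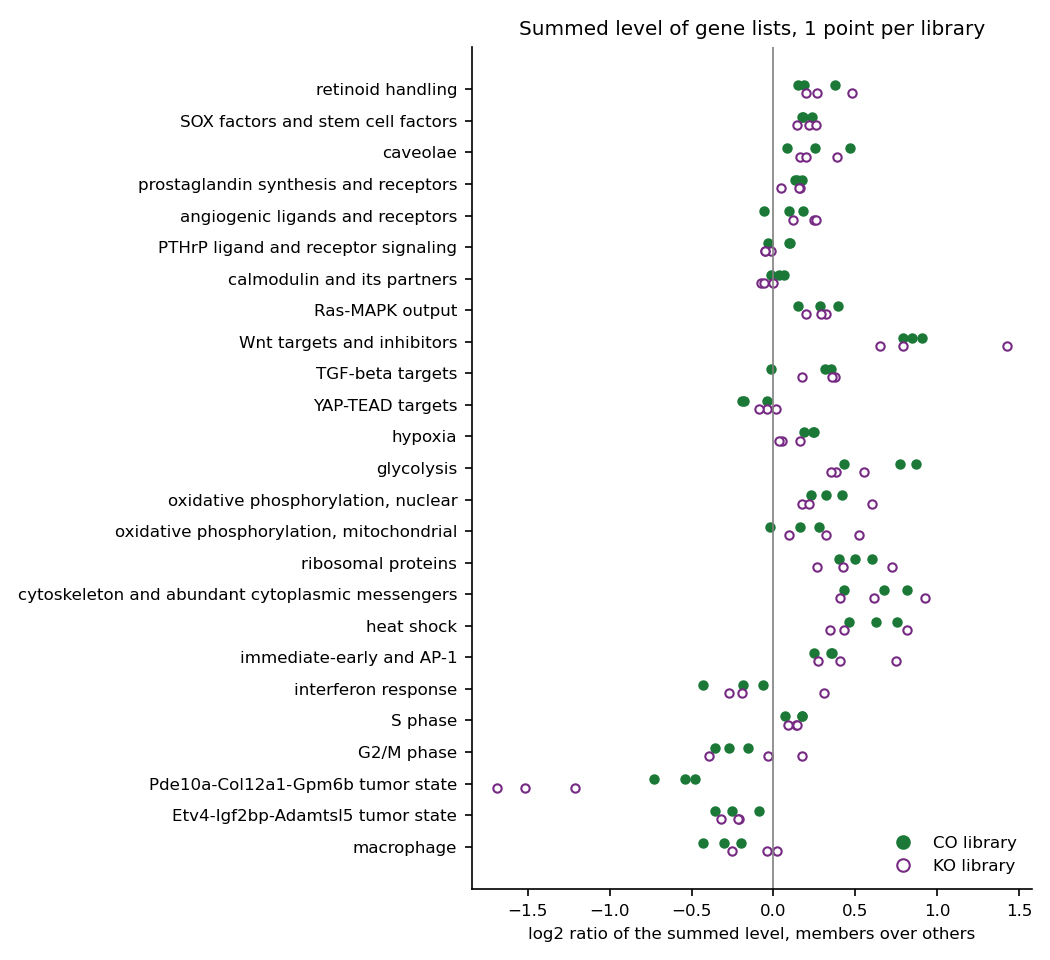
Log2 ratio of the summed level of a gene list in the members over the other tumor nuclei of the same library (horizontal axis), with 1 point per library, rule genes left out. Of the 25 lists drawn, the Wnt list, most of whose sum is Dkk2, has the highest median ratio and the Pde10a-Col12a1-Gpm6b list the lowest, with the KO libraries below the CO libraries.

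Of the cell cycle lists, S phase genes had calls and G2/M genes had none. At 1500 UMIs per nucleus, 83.6, 89.2 and 83.3% (CO) and 86.9, 88.3 and 91.5% (KO) of members had 2 or more counts of S phase genes, and 87.5, 85.3 and 76.7% (CO) and 86.1, 84.6 and 84.5% (KO) of the other tumor nuclei did. The share was high in both kinds of nuclei, which leaves little room for a rise. The difference was 3.04 ± 4.06 percentage points (SD, n = 6; exact sign-flip permutation test, two-sided, p = 0.125). For G2/M genes it was -2.63 ± 4.17 points (exact p = 0.281). Of 25 S phase genes, 4 were higher, Mcm3, Mcm4, Mcm5 and Pcna, and none after matching, the list median was 0.20 (0.22 after matching), and the summed level was higher in 6 of 6 libraries by 0.07 to 0.17 on the log2 scale. Of 28 G2/M genes none was called. Their summed level was higher in the members of only 1 library, with log2 ratios of -0.39 to 0.17 and a median of -0.22. These counts are not read as shares of cycling cells.

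The members were compared with the nuclei at the top of 2 other gene sets. Of the 812 members, 38 (4.68%) were also in the top 10% of their library for Pde10a, Col12a1 and Gpm6b, and 46 (5.67%) were in the top 10% for Etv4, Igf2bp1, Igf2bp2, Igf2bp3 and Adamtsl5, where 10% of all tumor nuclei were by construction. The summed level of the first set in members over others, as a log2 ratio, was -0.73, -0.48 and -0.54 (CO) and -1.21, -1.52 and -1.69 (KO). Pde10a (-0.97) and Gpm6b (-1.60) were called lower and Col12a1 (-0.49) was not. For the second set the log2 ratio was -0.36, -0.26 and -0.09 (CO) and -0.21, -0.22 and -0.32 (KO), negative in all 6 libraries with no gene called.

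Markers of other cells were also read in the members. The 13 macrophage genes outside the gate summed to 340.0 to 551 CPM in the members and 397 to 657 CPM in the others, and the pan-leukocyte gene Ptprc (-0.85) was the 1 of 10 tested that was called lower. T and NK genes summed to at most 37.8 CPM in the members and 91.2 CPM in the others, with Skap1 (-1.20) and Tox (-1.57) lower. Dock2 and Epsti1 among the largest falls are also expressed in leukocytes. The paper lists Prex2 among the top markers of its endothelial cells and Tshz2 among those of its matrix-remodeling fibroblasts. Prex2 ranged from 1.66 CPM (CO replicate 1) to 33.1 CPM (KO replicate 3) in the other tumor nuclei. Whether fewer transcripts of immune or other host cells in the members have a part in these falls was not tested. Of 8 fibroblast genes, Mgp (0.93) and Gsn (0.65) were higher and Fbn1 (-1.42) and Ebf2 (-1.0) lower. After matching, Fbn1 (-1.53) and Ebf2 (-0.77) were still called, whereas Mgp (0.44) and Gsn (0.37) were not. No gene of the endothelial, muscle, adipocyte or dendritic lists was called against all other tumor nuclei, and the endothelial gene Pecam1 was called lower after matching (-0.81). Endothelial genes summed to 216 to 425 CPM in the members and 206 to 308 CPM in the others. Doublet scores averaged 0.0635 to 0.0882 in the members and 0.0652 to 0.0877 in the others.

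The last question was whether the state differed between the libraries of tamoxifen-treated (KO) and vehicle-treated (CO) hosts. The rule takes the same 10% in each library, so the level of the markers was compared over all tumor nuclei. It was 716, 637 and 477 CPM (CO) and 536, 351 and 443 CPM (KO), with means of 610.1 ± 122 and 444 ± 92.6 CPM (SD, n = 3 each). The difference of -167 CPM gave p = 0.2 in an exact two-sided permutation test, in which 3 against 3 libraries cannot go below 0.1. At 1500 UMIs per nucleus, 24.1, 21.4 and 14.9% (CO) and 18.0, 9.97 and 15.5% (KO) of tumor nuclei held 2 or more marker counts, a difference of -5.67 percentage points (exact permutation test, p = 0.3). Without thinning, the difference was -5.61 points, and at 3000 UMIs it was -10.9 points. It was -3.42 points without KO replicate 2 and -3.71 without CO replicate 1. The groups overlapped in both measures. In bulk terms, fewer nuclei in the state and less marker RNA per nucleus cannot be told apart from such sums. In macrophage nuclei the summed level overlapped between the groups as well.

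Single markers went different ways. Crabp1 over all tumor nuclei was at 123, 93.4 and 96.0 CPM (CO) and 55.8, 37.9 and 40.8 CPM (KO), and each KO library lay below each CO library. Within the members KO stood -1.23 from CO on the log2 scale (SE 0.29), which missed the threshold (edgeR, adjusted p = 0.576). In macrophage nuclei Crabp1 was at 73.3, 69.7 and 75.6 CPM (CO) and 51.2, 26.8 and 43.4 CPM (KO), again lower in each KO library, and the part of free RNA in the difference was not tested. Msln was at 36.3, 23 and 33.4 CPM (CO) and 76.7, 10.9 and 9.97 CPM (KO). KO replicate 1 had the highest level of the 6 and the other KO libraries the lowest, so that the group means say little. Ptgfr was at 55.7, 57.3 and 79.6 CPM (CO) and 46.3, 104 and 85.6 CPM (KO), with the highest values in KO replicates 2 and 3 and CO replicate 3. The remaining 5 markers overlapped between the groups, with log2 fold changes in the members of -0.53 to -0.09 and adjusted p of 0.584 to 0.881.

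**Figure D5:**
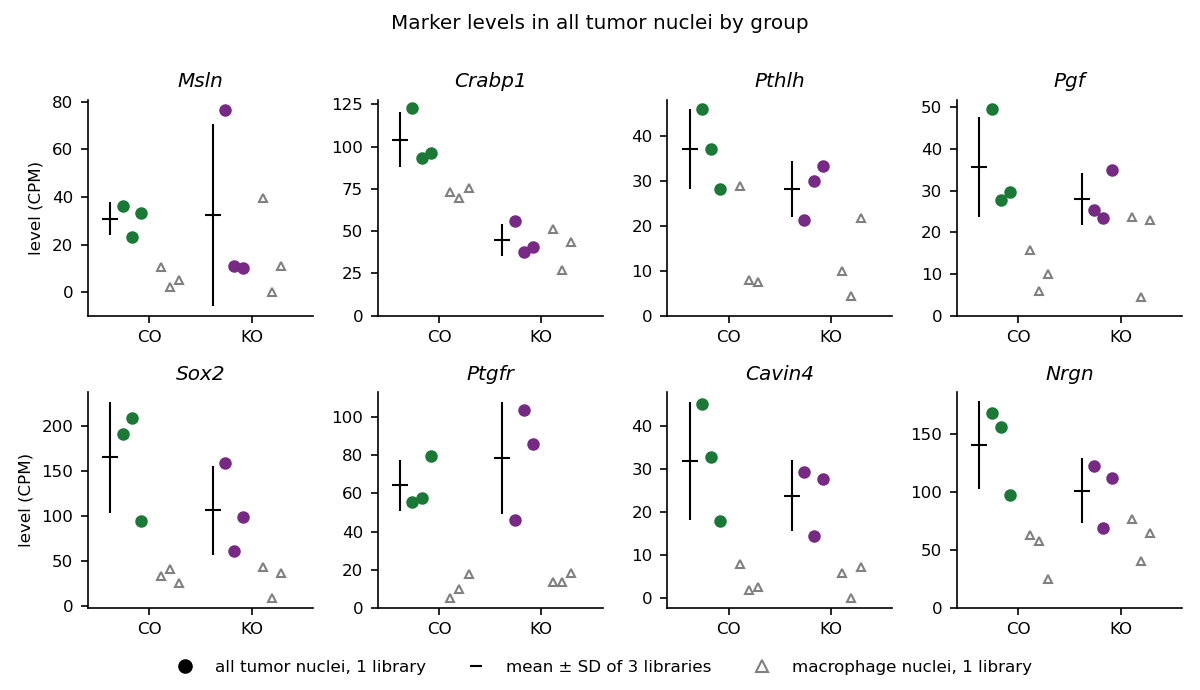
Level of each marker over all tumor nuclei (filled circles, 1 per library; bars give mean ± SD of 3 libraries) and over macrophage nuclei of the same libraries (open triangles), in CPM on the vertical axis, for the CO and KO groups. The groups separate for Crabp1 and overlap for the other 7 markers.

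Across all genes, edgeR called none of 9805 genes between KO and CO within the members (0% of those tested), and the lowest adjusted p was 0.576. Before adjustment, p was under 0.05 for 788 genes. DESeq2 called 2, Dcn and Naaladl2. Without KO replicate 1, 390 genes were called, 84 higher and 306 lower, whereas leaving out any other library gave 0 calls, so that this library decides the count. In simulated counts of similar spread, the fit of all 6 libraries called 9 of 100 genes changed by 1 in size on the log2 scale. It called 0 of 100 genes changed by 0.7. The count of 0 calls is thus no measure of how alike the groups were. In the real counts, the 5 genes with the smallest p had groups that did not overlap. Inpp4b, a phosphoinositide phosphatase, was at 36.8, 37.1 and 34.2 CPM (CO) and 93.2, 73.4 and 86.6 CPM (KO) in the members, Naaladl2 at 54.4, 88.0 and 106 CPM (CO) and 222, 229 and 189.8 CPM (KO), and Siae, a sialic acid esterase, at 73.5, 60.4 and 84.5 CPM (CO) and 135, 207 and 188 CPM (KO). These 3 were higher in each KO library. Col18a1, which encodes a basement membrane collagen, was at 229, 286 and 209 CPM (CO) and 109, 101 and 117 CPM (KO), and the fibroblast proteoglycan Dcn at 29.9, 37.9 and 80.9 CPM (CO) and 2.52, 11.6 and 8.25 CPM (KO). Both were lower in each KO library, and all 5 had adjusted p = 0.576. In the other tumor nuclei of the same libraries Inpp4b was at 34.4, 34.3 and 51.5 CPM (CO) and 80.6, 74.3 and 83.6 CPM (KO) and Col18a1 at 208, 263 and 197 CPM (CO) and 101, 104 and 116 CPM (KO). The values of these 2 genes outside the members were thus close to those in the members. The groups did not overlap outside the members for the remaining genes either. There Naaladl2 was at 73.7, 94.2 and 184 CPM (CO) and 240, 200 and 230 CPM (KO), and Siae at 58.3, 50.7 and 52.1 CPM (CO) and 109, 93.0 and 135 CPM (KO). Dcn was at 23.9, 22.3 and 49.2 CPM (CO) and 5.96, 7.80 and 10.9 CPM (KO).

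The difference between members and other tumor nuclei was itself compared between KO and CO. This interaction was called for none of 11804 genes (0%) by edgeR and for none by DESeq2. In simulated counts of similar spread, edgeR called 56 of 100 genes with an interaction of 1 in size on the log2 scale. At 0.7 it called 39 of 100, so that real interactions could be missed. Before adjustment, edgeR gave 535 genes with p under 0.05 in the real counts, and the lowest adjusted p was 0.249. The smallest p belonged to Pde10a, a phosphodiesterase, with an interaction of -0.80 (SE 0.17, adjusted p = 0.249). Its log2 ratio of members over others, after adding 1 CPM to each level, was -1.09, -0.52 and -0.44 (CO) and -1.11, -1.38 and -1.83 (KO), negative throughout with CO replicate 1 among the KO values. For Gpm6b the ratio was -0.61, -1.21 and -1.19 (CO) and -2.23, -2.24 and -2.27 (KO), further below 0 in each KO library (adjusted p = 0.249). Pgk1, a glycolytic kinase, had 1.10, 1.20 and 0.66 (CO) and 0.48, 0.48 and 0.51 (KO), with a smaller rise in each KO library (adjusted p = 0.516). Plxna4, a semaphorin receptor, had -0.23, -1.78 and 0.04 (CO) and 1.77, 0.90 and 1.15 (KO) (adjusted p = 0.516) and Pou6f1, a transcription factor, -0.68, -0.93 and -1.11 (CO) and 0.13, 0.67 and 0.68 (KO) (adjusted p = 0.565). None of the 8 markers and none of the 25 named rises and falls had a called interaction in this fit. Without the filter on low counts, 12 genes were called, among them Pde10a, Pgk1, Plxna4 and the named fall Gpm6b (adjusted p = 0.00861).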

How the data were processed

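Single-nucleus RNA was sequenced from 3 CO and 3 KO libraries with 10x 3′ chemistry. The authors made count matrices of UMIs per gene and nucleus with Cell Ranger on GRCm38 (version 3.0.2 per the labels, 3.1.0 per the file headers). The deposited counts were whole numbers under a Cell Ranger header. They were taken as made before the background removal, doublet removal, integration and annotation that the authors ran afterwards. Whole numbers alone do not show that no background or doublets had been removed. The labels do not say whether intronic reads were counted. Each unique count stands for 1 captured molecule, so that rare genes carry counting error.

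Nuclei with 100 to 7500 genes, under 20% mitochondrial UMIs and at least 1500 UMIs were kept. The members and the gene lists were chosen with earlier results of these data known. Macrophage nuclei were set after their counts were seen. Counts were summed per library and tested with edgeR 4.0.16 in R 4.3.3 (quasi-likelihood F-test, TMM, filterByExpr, Benjamini-Hochberg over all genes, two-sided), with the library as a block for members against others and for the interaction. The 16 genes of the rule were left out of the counts of calls. Named genes were the 8 markers, the 15 largest rises and 10 largest falls called with 1 direction in 6 libraries and at least 10 CPM (gene models without a name left out), the 5 smallest p of each KO comparison, up to 4 genes of each list and the partners of the markers. A few further called members of lists were named after their values were seen. Alternatives were DESeq2 1.42.0, its size factors, no filter, Scrublet doublets removed (scanpy 1.11.5), at least 3000 UMIs, the top 5%, matching on depth, thinning, halved UMIs, each library left out and a replicate block. Matching on cytoplasmic messengers was added after the data were seen. The scripts were tested on simulated data. Promoters are from RefSeq and gene positions from GENCODE. Some named genes are not reported here.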

Additional observations from a re-analysis of the deposited data

Results flagged for a closer look

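Pou6f1, a POU-domain transcription factor, moved in opposite directions in the members of the 2 groups. Its log2 ratio of members over other tumor nuclei was negative in all 3 CO libraries and positive in all 3 KO libraries. The interaction was 1.43 on the log2 scale, and the test of this difference did not pass after adjustment in edgeR over all genes (adjusted p = 0.565). Pou6f1 was 1 of the 5 genes with the smallest p of that comparison.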

How the results depend on the processing

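Genes higher and lower in the members numbered 548 and 233. DESeq2 gave 155 lower, the top 5% of nuclei 832 higher, members chosen at 1500 UMIs 96 higher and 67 lower, halved UMIs 119 lower, and matching on cytoplasmic messengers, which was added after the data were seen, 140 higher and 112 lower. The cause was not tested. Tshz2 turned from a fall to 0.0058 with members chosen at 1500 UMIs, where Lgals7, Prex2, Dock2, Epsti1 and Gpm6b kept their direction but missed the threshold, as did Lgals7 with halved UMIs. For KO against CO within the members, the count of 0 became 2 with DESeq2, 1 without the filter and 0 to 390 with 1 library left out, the highest without KO replicate 1. For the interaction, the count of 0 became 12 without the filter, 1 with doublets removed (Slit3), 1 with the replicate block (Cemip) and 0 to 3 with 1 library left out. The difference in mitochondrial share from all other tumor nuclei stayed at 1.09 to 1.38 percentage points with 1 library left out. There 5 libraries cannot give an exact p below 0.0625. Against the nuclei matched on cytoplasmic messengers this share was not tested, and the members were not higher in every library. Whether replicate numbers paired the samples cannot be decided from so few libraries. In their deviations from the group means, same-numbered libraries correlated at 0.467, -0.146 and -0.033, and differently numbered ones at -0.509 to 0.493. With the replicate block, edgeR gave 0 calls for KO against CO in the members. It gave 1261 genes with p under 0.05 before adjustment, against 788 without the block. The differences in marker level and share stayed the same (exact sign-flip p = 0.25 and 0.5, where 3 pairs cannot go below 0.25). The other 147 values that answer a comparison kept their direction and side of the threshold, counts within 1.5 times. Depth limits rare genes such as Pth1r and Slc16a7, and 3 libraries a group cannot give an exact p below 0.1.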

Other observations

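Some further gene groups were picked after the values had been seen, so that their counts carry no test and stand beside the shares of all genes, 4.85% higher and 2.06% lower. Of 18 tested genes of sterol synthesis, all had positive log2 fold changes, 10 were called higher and the median was 0.61. Hsd17b7, an enzyme late in cholesterol synthesis, was at 48.3, 52.6 and 37.8 CPM (CO) and 26.9, 45.6 and 30.3 CPM (KO) in the members and 24.6, 20 and 26.0 CPM (CO) and 17.5, 22.1 and 21.6 CPM (KO) in the others (log2 fold change 0.97). Mvd (0.97), Idi1 (0.92), Cyp51 (0.79), Msmo1 (0.78) and Hmgcs1 (0.67), which act along the mevalonate pathway and in the steps after it, were also higher. Against other nuclei matched on cytoplasmic messengers, 6 of 17 tested were called and the median was 0.41.

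Among 8 tested ligands of the EGF receptor family, Areg, Btc (0.85) and Ereg were higher and Tgfa (-0.77) was lower, and Areg and Btc were called after matching. Betacellulin, Btc, was at 159, 180.2 and 82.7 CPM (CO) and 157, 124 and 168 CPM (KO) in the members and 94.1, 104 and 39.3 CPM (CO) and 85.8, 81.8 and 94.6 CPM (KO) in the others. Among 9 tested activin and BMP ligands and antagonists, 4 were higher both before and after matching, namely the activin subunit Inhba, its antagonist follistatin (Fst, 0.91), Bmp2 (0.87) and the BMP coreceptor Rgmb (0.77). Fst was at 1619, 1501 and 1142 CPM (CO) and 1784, 576 and 835 CPM (KO) in the members and 883, 806 and 729 CPM (CO) and 1096, 266 and 463 CPM (KO) in the others. A ligand and its antagonist were thus both higher in the counts summed over members. Whether single nuclei held both was not tested.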
